A study of Homo sapiens with 9 samples.

Results

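Translation initiation and elongation factors load the ribosome onto mRNA, place it at the start codon and drive the addition of each amino acid. The genes described here are the protein-coding genes of both deposited tables whose symbols begin with EIF1 to EIF6, EEF1 or EEF2. The rule uses names and biotype only, no measured value, and found 71 members among 58735 genes, of which 19951 are protein coding. Of the 71 members, 63 had a mean of at least 1 FPKM (fragments per kilobase of exon, scaled per library) over 9 libraries and were tested. The other 8 were not tested.

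The study sequenced RNA from PaTu 8988t, an established human pancreatic tumour cell line derived from a metastasis, in medium with fetal bovine serum and penicillin/streptomycin. There were 3 libraries from cells on a control extracellular matrix (label Ctrl ECM), 3 from cells on a matrix with wild-type CPXM2 (label CPXM2WT OE ECM) and 3 from cells on a matrix with the CPXM2 mutant R213A (label CPXM2R213A OE ECM). CPXM2 is a secreted protein related to the carboxypeptidases, and the series title links it to aligned collagen. All groups use 1 line, and no source used here says that libraries of a group are separate cultures. The p-values therefore speak of the scatter among libraries, part of which may be technical.

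The values were deposited in separate tables. One table, called the 4-library table, has control 1, wild type 1 and R213A 1 and 3. The other, called the 5-library table, has 2 control and 2 wild-type libraries (numbers 2 and 3) with R213A 2. In the 4-library table control and wild type therefore have 1 library each, and the 2 tables may be scaled separately, so every group difference below was formed within a table and levels across tables are a description. Libraries held 15951927 to 18312806 reads, and the tested members a median of 2211 reads per library and at least 29. In the 5-library table control 2 stood apart from the other 4 libraries, and values without it are given beside the results that it moves most. The labelled cell type was checked by its markers: KRT8 and KRT18, keratins of simple epithelia, were at 104 to 300.3 and 211 to 647 FPKM, EPCAM at 1.84 to 6.57 and the mesenchymal gene VIM at 81.0 or above, while KRT19 and CDH1 stayed at or under 0.0717 and 0.136 FPKM. Of the acinar, endocrine, fibroblast, immune and endothelial markers, 0 had a mean of 1 FPKM, and the summed level of each list stayed at or under 0.120, 0.138, 0.871, 0.0766 and 1.03 FPKM in every library, with PRSS1, CPA1, INS, GCG, FAP and CD3E at 0 in all 9.

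As background, eIF4F joins the cap-binding protein eIF4E, the helicase eIF4A and the scaffold eIF4G at the 5′ end of an mRNA, and the eIF4E-binding proteins hold eIF4E away from eIF4G unless mTORC1 phosphorylates them. The 43S complex, with eIF1, eIF1A, eIF3, eIF5 and eIF2 carrying the initiator tRNA, scans to the start codon. eIF2B recharges eIF2 with GTP, and 4 stress kinases block that step by phosphorylating eIF2 alpha. eEF1A then delivers aminoacyl-tRNA, eEF1B recharges it, and eEF2 moves the ribosome along by a codon. Many elongation factor and ribosomal protein mRNAs start with a pyrimidine-rich 5′ terminal oligopyrimidine (TOP) tract, through which mTORC1 and LARP1 control their translation.

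The start sites of 9 members of different steps are shown, 6 with such a start and 3 without, chosen after their letters were seen. Each line gives 30 bases of RefSeq sequence (GRCh38.p14), 15 before and 15 from the annotated transcription start, 5′ to 3′ on the gene's strand, with the first 5 transcribed bases in capitals. EEF1A1 (chr6:73521018-73521047, minus strand), EEF2 (chr19:3985449-3985478, minus), EEF1B2 (the second of its 2 listed starts, chr2:206159880-206159909, plus), EIF4B (chr12:53006441-53006470, plus), EIF4A2 (chr3:186783562-186783591, plus) and EIF3F (chr11:7987322-7987351, plus) start with a C followed by 4 bases that are each C or T. EIF4E (chr4:98929119-98929148, minus), EIF2S1 (chr14:67360313-67360342, plus) and EIF1 (chr17:41688870-41688899, plus) do not.
EEF1A1: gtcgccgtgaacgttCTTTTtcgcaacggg
EEF2: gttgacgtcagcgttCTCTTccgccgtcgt
EEF1B2: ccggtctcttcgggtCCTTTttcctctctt
EIF4B: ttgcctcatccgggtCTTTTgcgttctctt
EIF4A2: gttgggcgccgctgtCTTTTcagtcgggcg
EIF3F: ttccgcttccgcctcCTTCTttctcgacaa
EIF4E: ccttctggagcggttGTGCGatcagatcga
EIF2S1: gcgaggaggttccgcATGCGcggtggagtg
EIF1: aggcaccgcccctctGCCCCagtcactgag

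The pattern was searched at the annotated start only, on the transcribed strand. It was present for 13 of the 57 members with an entry in the promoter table (22.8%), for 44 of 65 ribosomal protein genes (67.7%) and for 1404 of 27305 genes in all (5.14%). The 13 members are EEF1A1, EEF1B2, EEF2, EIF2A, EIF2D, EIF2S3, EIF2S3B, EIF3D, EIF3F, EIF3K, EIF3M, EIF4A2 and EIF4B. Of 6 members listed from textbook knowledge as TOP mRNAs and present in the table, 5 had it, and the sixth, EEF1G, did not. A match is a description of these letters and not a tested site.

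Among the 8 members not tested, 5 were listed at 0 in all 9 libraries: EEF1G, EIF4E1B, EIF1AY and the readthrough genes EEF1AKMT4-ECE2 and EEF1E1-BLOC1S5. EEF1G, the gamma subunit of eEF1B, is a gene that growing cells use at a high level, so its listing at 0 is not read as absence. The annotation (GENCODE 29, whose coordinates match the deposited ones for 100% of genes) places 2714 of its 2716 exon bases (99.9%) on the same strand as exons of AP002990.1. That gene was itself listed at 0.117 to 1.28 FPKM. EIF4A1, the main eIF4A helicase, was likewise listed at only 0.903 FPKM in control 1, 0.438 in wild type 1, 0.263 and 0.307 in R213A 1 and 3, 0.962 and 0.903 in control 2 and 3, 0.652 and 0.658 in wild type 2 and 3 and 0.484 in R213A 2. It shares 48.6% of its exon bases with other genes on its strand, each listed at or under 0.0606 FPKM. The pseudogene copy EIF4A1P10 was listed at 5.22 to 24.7 FPKM, and how reads were split between it and EIF4A1 is not given. How the counting treated shared bases is not given in the sources used here, and its part in these values was not tested. EEF1AKMT3 (0.614 to 1.32 FPKM) and EIF4EBP3 (0 to 0.533 FPKM) had means under 1 FPKM.

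The members took 3.32% to 5.70% of all reads, and EEF1A1 alone 47.9% to 69.5% of the members' reads. Without EEF1A1 the share was 1.64% to 2.00%. Of the tested members, 16 had a mean over 100 FPKM, 25 lay between 10 and 100 and 22 between 1 and 10. Highest by mean were EEF1A1 at 4609 FPKM, EEF2 at 1027, the eIF4E-binding protein gene EIF4EBP1 at 346, EEF1B2 at 286 and EIF5A at 238. Lowest among those tested were the cap-binding relative EIF4E3 at 1.29 FPKM, the eEF1A methyltransferase gene EEF1AKMT2 at 1.49 and EIF4E itself at 2.59. The level of EIF4EBP1 per length exceeded that of EIF4E 46.7-fold to 790.3-fold in the 9 libraries. These levels divide reads by all annotated exon bases, 14067 for EIF4E and 1073 for EIF4EBP1, so the ratio of reads was smaller. In control 1 the reads were 3942 for EIF4EBP1 and 956 for EIF4E, and in wild type 1 they were 16155 and 268. The pseudogene copy EIF4EP2 was listed at 3.08 to 11.5 FPKM. How reads were split between EIF4EP2 and EIF4E is not given, so the level of EIF4E is uncertain.

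**Figure D1:**
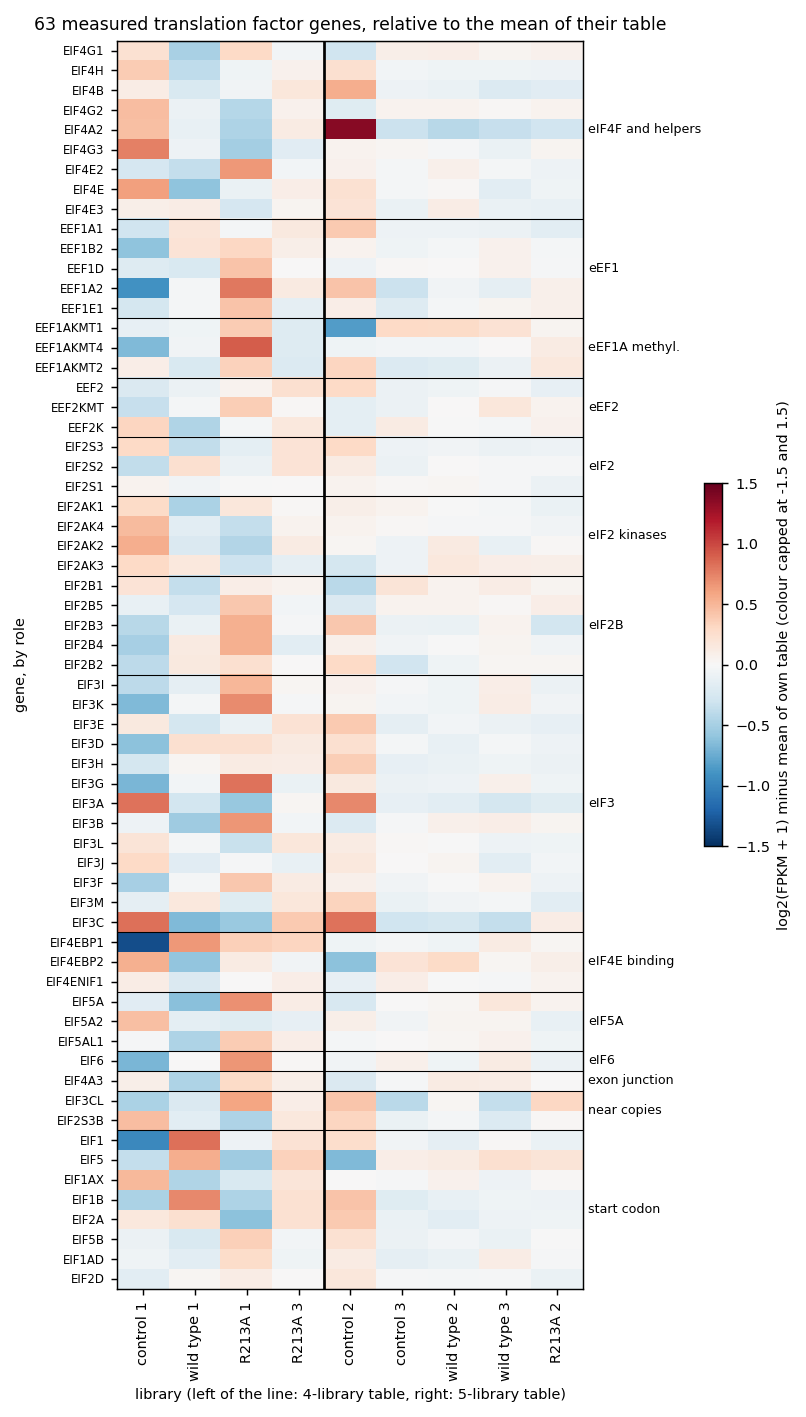
The colour shows log2(FPKM + 1) of the 63 tested members (rows, by role) in each of the 9 libraries (columns) after the mean of the library's own table was taken off, so red is above and blue below that mean. Control 3, wild type 2, wild type 3 and R213A 2 are pale throughout, whereas control 2 and the 4 libraries left of the line differ from their table mean for many members.

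Within the 5-library table the members, like all genes, varied little once control 2 was left out. Over control 3, wild type 2 and 3 and R213A 2, the median range of a member was 0.14 on the log2(FPKM + 1) scale, beside 0.16 over all genes. Of the members, 0 of 63 spanned 2-fold, and 1.32% of all 11193 tested genes did. The 4-library table had a median range of 0.83, beside 0.80 over all genes, and 19 of 63 members (30.2%) spanned at least 2-fold, beside 34.3% of all genes. The widest was EIF4EBP1, at 1.99. Control 2 lay outside the range of the other 4 libraries of its table for 55 of 63 members (87.3%, beside 80.8% of all genes), above it for 38 and below it for 17. It stood highest above the mean of the other 4 for EIF4A2, by 1.71, and lowest below it for EEF1AKMT1, by -1.04 on the log2 scale. The part of control 2 in each contrast is therefore given below.

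**Figure D2:**
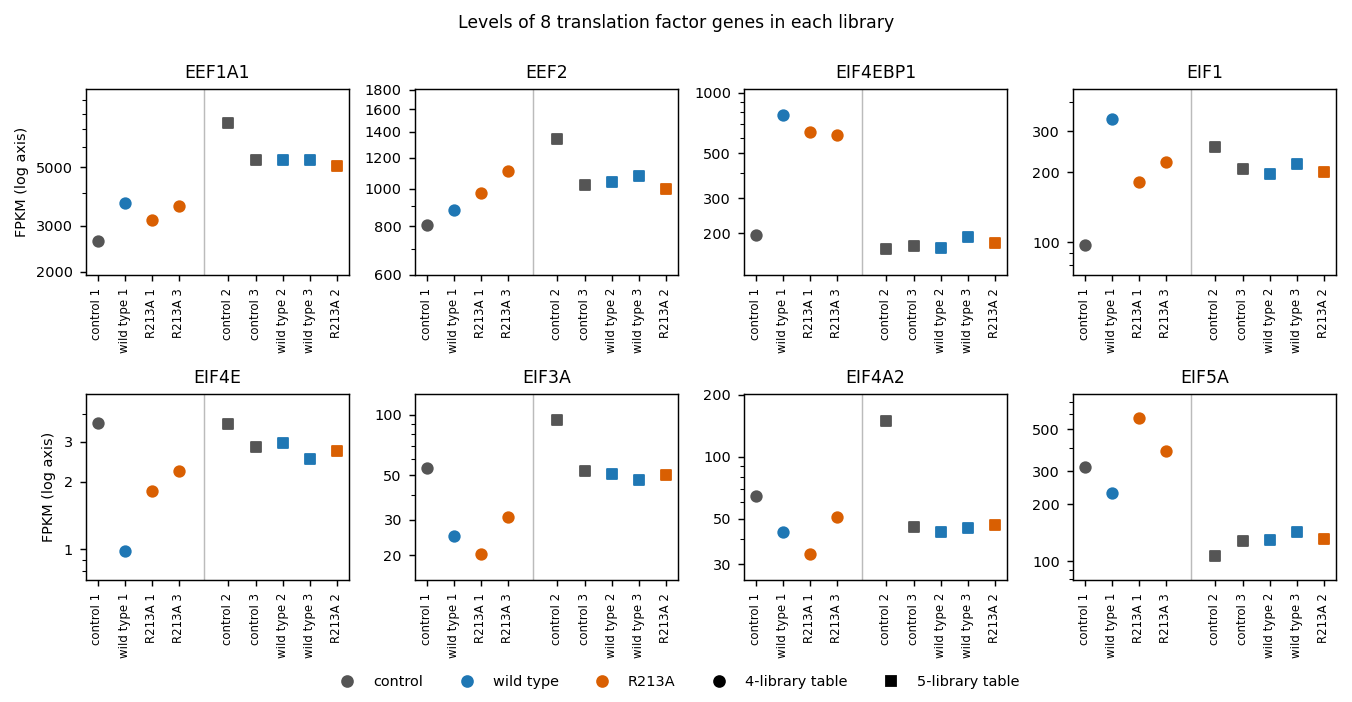
Each panel gives the level of 1 gene in FPKM (log axis) in the 9 libraries, with the group as colour and the deposited table as marker shape, left and right of the grey line. EIF4EBP1 is at 196 FPKM in control 1 and 621 to 779 in the other libraries of the 4-library table, but at 168 to 192 in the 5-library table, and EIF4A2 and EIF3A are highest in control 2.

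The first comparison asked how cells on wild-type CPXM2 matrix differed from cells on control matrix. No member passed the threshold: limma called 0 of 63 members at an adjusted p of 0.05 (0% of all genes were called, 0 of 11193), and the smallest adjusted p of a member was 0.757. At an unadjusted p under 0.05 there were 3 members (4.76%, beside 4.49% of all genes), namely EIF3A, EIF3C and EIF4E, each lower on wild-type matrix. That count was 0 when control 1 or wild type 1 was left out (1.04% and 0.652% of all genes), 1 when control 2 or wild type 3 was (3.32% and 3.10%), and 6 when control 3 was (12.3%). The median log2 difference of the members was -0.03, as it was over all genes tested, with -0.12 by the 4-library table and -0.03 by the other, or 0.02 there without control 2. By size alone, 3 members stood at least 2-fold higher in the 4-library table (EIF4EBP1, EIF1 and EIF1B, 4.76% beside 7.79% of all genes) and 4 at least 2-fold lower (EIF4E, EIF3A, EIF3C and EIF4EBP2, 6.35% beside 8.84%). Within the 5-library table, 0 members were 2-fold higher (0.205% of all genes) and 0 were 2-fold lower (0.152%). The sign was the same in both tables for 31 of 63 members, or 49.2%, beside 51.4% of all genes.

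The second comparison set R213A matrix against control matrix. limma again called 0 of 63 members, with 0% called of all 11193 genes and a smallest adjusted p among the members of 0.690. At an unadjusted p under 0.05 there was 1 member (1.59%, beside 3.05% of all genes), EIF3A, lower on R213A matrix. Leaving out control 1 or R213A 1 gave 0 (1.02% and 0.884% of all genes), R213A 3 or wild type 1 gave 2 (3.57% and 4.36%), control 2 or control 3 gave 4 (3.37% and 9.79%), and R213A 2 gave 7 (10.0%). The members' median log2 difference was 0.07, against -0.02 over all genes. It was 0.21 by the 4-library table and -0.075 by the other, or -0.0033 there without control 2. At least 2-fold higher in the 4-library table stood 7 members (EIF4EBP1, EIF1, EEF1A2, EEF1AKMT4, EIF3G, EIF3K and EIF6, 11.1% beside 5.22% of all genes), and 2 at least 2-fold lower (EIF3A and EIF4G3, 3.17% beside 3.18%). The counts were 0 and 0 in the 5-library table, beside 0.304% and 0.223% of all genes. The sign was the same in both tables for 32 of 63 members (50.8%, beside 48.7% of all genes). Both comparisons share their control libraries, and in the 4-library table these are control 1 alone.

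The third comparison set the wild-type against the R213A matrix, which differ in CPXM2 by the named mutation. limma called 0 of 63 members (0% of all genes), the smallest adjusted p of a member was 0.996, and 0 members had an unadjusted p under 0.05, beside 1.05% of all genes. Leaving out control 2 or control 3 gave 1 such member (1.04% and 1.06% of all genes), and leaving out R213A 2 gave 2 (6.92%). No 4-library difference reached 2-fold higher on wild-type matrix, with 0 members (2.44% of all genes), and 1, EIF5A, was at least 2-fold lower (1.59%, beside 4.07%). The 5-library counts were 0 and 0, beside 0.0983% and 0.179% of all genes. The median over the members was -0.13, with -0.26 by the 4-library table and 0.02 by the other. The median over all genes was -0.01. On recovered reads limma-voom also called 0 members in each of the 3 comparisons, with 3, 2 and 0 at an unadjusted p under 0.05, beside 3.78%, 1.91% and 0.902% of all genes.

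**Figure D3:**
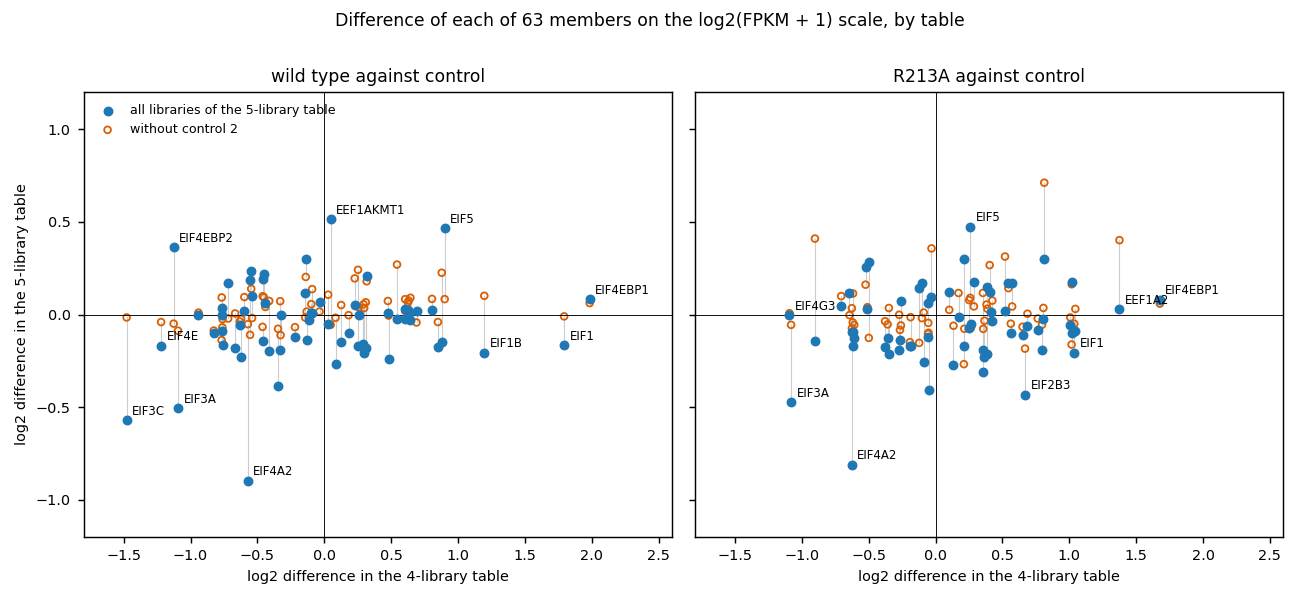
Each filled point is 1 of the 63 tested members, placed by its log2 difference from control in the 4-library table (horizontal) and in the 5-library table (vertical), for wild type (left) and R213A (right), and open points give the vertical value without control 2. EIF4EBP1 lies at 1.99 and 1.68 horizontally but at 0.08 vertically, and the vertical values of EIF3A, EIF3C and EIF4A2 move towards 0 without control 2.

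Elongation factors carried most of the members' reads, and for EEF1A1 and EEF2 control 1 was lowest in its table and control 2 highest in the other. EEF1A1 (ENSG00000156508, hg38 chromosome 6, 73515750 to 73523797, minus strand) encodes the eEF1A that most cells use. It was at 2622 FPKM in control 1, 3659.7 in wild type 1 and 3148 and 3576 in R213A 1 and 3. In the other table it was at 7391 and 5351 FPKM in control 2 and 3, 5351 and 5309 in wild type 2 and 3 and 5070.4 in R213A 2. Control 1 was thus below every other library of its table. In the 5-library table wild type 2 was level with control 3, and wild type 3 and R213A 2 lay below both controls. The log2 difference from control was 0.00 ± 0.31 on wild-type and -0.02 ± 0.32 on R213A matrix (SE, limma adjusted p = 1.00 and 0.98). By table it was 0.48 and -0.24 on wild-type and 0.36 and -0.31 on R213A matrix, and in the 5-library table it was -0.01 and -0.08 without control 2. The gene has near-identical processed copies, and EEF1A1P5 was listed at 297 to 1378 FPKM. How reads were split between them is not given, so the level of EEF1A1 is uncertain to that extent. The 136 annotated pseudogene copies of all members together took 0.0520% to 0.202% of the reads.

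EEF2, the translocase, followed the same order in the controls, with 807 FPKM in control 1 and 1342 in control 2, and 882 to 1109.9 in the other 7 libraries. Its difference from control was -0.06 ± 0.26 on wild-type and 0.07 ± 0.27 on R213A matrix (SE, limma adjusted p = 0.95 and 0.93). In the 4-library table these differences of EEF2 were 0.13 and 0.37, and in the other -0.15 and -0.23, or 0.05 and -0.03 there without control 2. EEF2K, the kinase that inactivates eEF2, was at 4.99, 2.52, 3.69 and 4.34 FPKM in control 1, wild type 1, R213A 1 and R213A 3, and at 3.16 to 4.003 in the 5-library table. Control 1 was the highest and wild type 1 the lowest of the smaller table, while the controls enclosed the 3 other libraries of the larger one. EEF2K differed between wild type and R213A by -0.23 ± 0.20 (SE, limma adjusted p = 0.996), with -0.51 and -0.08 in the tables. EEF2KMT, which methylates eEF2, was one of the 3 members of smallest p for R213A against control with the same sign in both tables. It stood at 6.96 FPKM in control 1, 12.1 and 9.25 in R213A 1 and 3, 2.24 and 2.37 in control 2 and 3 and 2.73 in R213A 2, a difference of 0.37 ± 0.18 (SE, limma adjusted p = 0.690). Both tables had R213A above control for EEF2KMT, by 0.54 and 0.17, and by 0.14 in the 5-library table without control 2.

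The eEF1B subunit gene EEF1B2 was at 231 FPKM in control 1 and 404, 436 and 375 in wild type 1, R213A 1 and R213A 3, while the 5-library table held it at 217 to 237. In the 4-library table control 1 stood apart for EEF1B2, with a difference of 0.81 in both comparisons, beside 0.03 and -0.02 in the 5-library table. In the fit over both tables the differences were 0.29 ± 0.25 and 0.35 ± 0.26 (SE, limma adjusted p = 0.77 and 0.69). EEF1D, another subunit of the exchange factor, was at 19.8, 19.3, 31.1 and 22.9 FPKM in the 4-library table and 13.9 to 15.5 in the other. EEF1A2, the eEF1A of brain and muscle, was at 8.62 FPKM in control 1, 16.7 in wild type 1 and 30.4 and 18.9 in R213A 1 and 3. Its values in the 5-library table were 22.2 and 12.8 in control 2 and 3, 15.7 and 14.7 in wild type 2 and 3 and 17.3 in R213A 2. EEF1A2 was 104-fold to 417-fold below EEF1A1 in every library. The 5 tested genes grouped under eEF1 by their symbols were EEF1A1, EEF1A2, EEF1B2, EEF1D and EEF1E1. For wild type and R213A against control they had medians of 0.48 and 0.42 in the 4-library table, beside -0.07 and -0.04 over all genes. In the other table the medians were 0.03 and 0.01, beside -0.01 and -0.02.

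Among the cap-binding and helicase genes, 0 of 9 stood higher on wild-type matrix in the fit over both tables (median -0.34). On R213A matrix 2 of 9 did (median -0.22), and over all genes 46.3% and 48.1% stood higher. Just 1 of 9 stood higher in each comparison of the 4-library table, beside 46.0% and 47.8% of all genes, with medians of -0.57 and -0.38. The 5-library medians were -0.10 and -0.17, and -0.03 and -0.02 without control 2. EIF4E, the cap-binding protein, was at 3.62 FPKM in control 1, 0.985 in wild type 1 and 1.81 and 2.23 in R213A 1 and 3, so control 1 was highest in its table. In the other table it was at 3.59 and 2.85 FPKM in control 2 and 3, 2.97 and 2.52 in wild type 2 and 3 and 2.73 in R213A 2, where wild type overlapped control. The difference on wild-type matrix was -0.52 ± 0.22 (SE, limma adjusted p = 0.757), with -1.22 in the 4-library table, -0.17 in the other and -0.04 in the latter without control 2. On R213A matrix it was -0.30 ± 0.23, and 0.03 when control 1 was left out.

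EIF4A2, the other cytoplasmic eIF4A, was at 149.999 FPKM in control 2 and at 43.0 to 46.8 in the other 4 libraries of that table. The other table had it at 64.7 in control 1, 43.2 in wild type 1 and 33.9 and 51.0 in R213A 1 and 3. The group differences of -0.79 ± 0.38 and -0.75 ± 0.39 (SE, limma adjusted p = 0.757 and 0.690) came with -0.57 and -0.63 in the 4-library table and -0.90 and -0.81 in the other, where they were -0.05 and 0.03 without control 2. All 3 scaffold genes were lower on average on both CPXM2 matrices than in control 1 within the smaller table, but by different amounts. EIF4G1 was at 189 FPKM in control 1, 114 in wild type 1 and 197 and 156 in R213A 1 and 3, and at 89.4 in control 2 against 113 to 118 in the rest of its table. EIF4G2, which lacks the eIF4E-binding part and serves cap-independent starts, was at 137, 94.2, 73.7 and 104 FPKM in the 4-library table and 92.3 to 109 in the other. EIF4G3, the third family member, was at 10.8 FPKM in control 1 and 5.65, 3.92 and 5.21 in wild type 1, R213A 1 and R213A 3. EIF4G3 stayed at 15.9 to 17.8 in the other table. Its R213A difference was -0.53 ± 0.24 (SE, limma adjusted p = 0.690), with -1.09 in the 4-library table and -0.01 in the other.

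EIF4EBP1, which encodes the best studied eIF4E-binding protein, had the widest range among the members in the 4-library table. It was at 196 FPKM in control 1, 779 in wild type 1 and 637 and 621 in R213A 1 and 3. In the other table it was at 168 and 172 FPKM in control 2 and 3, 169 and 192 in wild type 2 and 3 and 179.6 in R213A 2. Control 1 was thus below every other library of its table, and close to all 5 libraries of the other, where wild type overlapped control and R213A 2 lay between the wild-type libraries. Over both tables the difference was 0.72 ± 0.37 on wild-type and 0.76 ± 0.38 on R213A matrix (SE, limma adjusted p = 0.757 and 0.690). In the smaller table it was 1.99 and 1.68, which placed EIF4EBP1 108th and 20th of 11193 genes from the highest difference, and in the larger it was 0.08 in both comparisons. Without control 1 the R213A difference was -0.02. Its relative EIF4EBP2 ran the other way, at 14.4 FPKM in control 1, 6.04 in wild type 1 and 10.6 and 9.22 in R213A 1 and 3. EIF4EBP2 was at 4.99 in control 2 and 8.39 to 10.2 in the other 4 of that table. The ratio of EIF4EBP1 to EIF4EBP2 was 13.6 in control 1, 129 in wild type 1 and 60.2 and 67.3 in R213A 1 and 3, and 16.6 to 33.5 in the 5-library table.

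The genes whose pattern was most like that of EIF4EBP1 were found by Pearson's r of log2(FPKM + 1) over the 9 libraries, after each table's mean was removed. They were CDC42EP1 at 0.996, DNASE2 at 0.990, SMARCA4 at 0.986, HAX1 at 0.984 and MOB3A at 0.984. CDC42EP1, an effector of the GTPase CDC42, was at 44.4 FPKM in control 1, 123 in wild type 1, 113 and 105 in R213A 1 and 3 and 30.7 to 36.5 in the 5-library table. Among the members EEF1B2, EIF3D and EIF1 were nearest (0.957, 0.905 and 0.890), and EIF5A2, EIF4G3 and EIF2AK4 were the farthest, at -0.939, -0.890 and -0.875. These coefficients describe 9 libraries of which control 1 is 1, and no test was made of them.

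Of the start codon factors, EIF1, EIF1B, EIF2A and EIF5 had their highest level of the 4-library table in wild type 1. For EIF2A the margin was small, at 23.8 FPKM against 23.6 in R213A 3. EIF1, which keeps the scanning complex open until the start codon is found, was at 97.3 FPKM in control 1, 339.7 in wild type 1 and 181 and 222 in R213A 1 and 3. In the other table EIF1 was at 258 and 207 FPKM in control 2 and 3, 196 and 216 in wild type 2 and 3 and 200.1 in R213A 2. The wild-type difference was 0.49 ± 0.37 (SE, limma adjusted p = 0.757), 1.79 by the 4-library table and -0.17 by the other, or -0.01 there without control 2, and -0.05 over both tables without control 1. EIF1B, its close relative, was at 21.4, 50.3, 21.5 and 35.4 FPKM in control 1, wild type 1, R213A 1 and R213A 3, and at 63.2 in control 2 against 40.8 to 44.5 in the other 4. EIF5, the GTPase activator of eIF2, had its low values in control 1 (33.7 FPKM), R213A 1 (29.6) and control 2 (33.6), against 55.4 to 64.0 in the other 6 libraries. Its wild-type difference of 0.61 ± 0.29 (SE, limma adjusted p = 0.757) came from 0.90 and 0.47 in the tables, the latter 0.08 without control 2. EIF1AX, the eIF1A gene on the X chromosome, was at 62.0, 31.8, 37.4 and 50.0 FPKM in the 4-library table and 47.5 to 52.6 in the other. EIF5B, which joins the ribosomal subunits, stayed between 14.05 and 26.3 FPKM in all 9 libraries.

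The kinases of eIF2 and its exchange factor differed between the tables in opposite directions, while the genes of eIF2 itself did not share a direction. EIF2S1, the alpha subunit that the kinases phosphorylate, was among the most even members, at 28.5 to 31.0 FPKM in the 4-library table and 23.3 to 25.8 in the other. Its differences from control were -0.06 ± 0.16 on wild-type and -0.08 ± 0.16 on R213A matrix (SE, limma adjusted p = 0.91 and 0.87). EIF2S2, the beta subunit, was at 114 to 174 FPKM in the 4-library table and 113 to 132 in the other. EIF2S3, the gamma subunit, was lower in the 4-library table, at 100.4 to 160 FPKM against 184 to 241. All 4 kinase genes stood below control 1 in wild type 1 and on average in R213A 1 and 3, with medians of -0.70 and -0.57 there and -0.01 and -0.02 in the 5-library table. Of all genes, 46.0% and 47.8% stood higher than control 1 in these comparisons of the 4-library table. EIF2AK1, the heme-regulated kinase HRI, was the most abundant, at 50.8, 29.5, 46.7 and 42.1 FPKM in the 4-library table and 59.7 to 68.1 in the other. EIF2AK2, the double-stranded RNA sensor PKR, was at 7.10, 3.76, 3.09 and 5.03 FPKM and at 11.0 to 13.2.

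EIF2AK3, the kinase PERK of the endoplasmic reticulum, was at 1.46, 1.24, 0.610 and 0.820 FPKM in control 1, wild type 1, R213A 1 and R213A 3. The other table listed EIF2AK3 at 3.21 and 3.80 in control 2 and 3, 4.63 and 4.42 in wild type 2 and 3 and 4.37 in R213A 2. It was one of the 3 members of smallest p for wild type against R213A with 1 sign in both tables, at 0.28 ± 0.20 (SE, limma adjusted p = 0.996). EIF2AK4, the amino acid sensor GCN2, was at 8.51, 5.14, 4.35 and 6.10 FPKM and at 11.16 to 12.1. Every kinase gene was thus lower in each library of the 4-library table than in any of the 5-library table. How many of all genes were separated in this way was not counted. By the mean of the libraries, 46.55% of all genes were higher in the 4-library table. The 5 eIF2B genes leaned opposite to the kinases between tables. The median difference was -0.08 over all genes, and for these 5 it was 1.03, higher in the 4-library table. EIF2B5, the catalytic epsilon subunit, was at 11.9, 10.7, 17.4 and 12.5 FPKM there and at 3.24 to 4.26 in the 5-library table. EIF2B2, the beta subunit, was at 6.24, 9.56, 10.2 and 8.58 FPKM there and at 3.80 to 6.21. For R213A against control 5 of 5 eIF2B genes stood higher in the fit over both tables, with a median of 0.23, beside 48.1% of all genes, and 0 of 5 had an unadjusted p under 0.05. By table, 4 of 5 stood higher in the 4-library table (median 0.52) and 3 of 5 in the other (median 0.02). EIF2B2 in that comparison was at 0.23 ± 0.22, and at -0.0022 without control 1.

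The 13 subunit genes of eIF3, the scaffold of the 43S complex, split within single libraries. EIF3A (ENSG00000107581, hg38 chromosome 10, 119033670 to 119080823, minus strand), the largest core subunit, was at 54.1 FPKM in control 1, 24.8 in wild type 1 and 20.2 and 31.0 in R213A 1 and 3. In the other table EIF3A was at 94.03 and 52.2 FPKM in control 2 and 3, 50.9 and 47.4 in wild type 2 and 3 and 50.2 in R213A 2. Every control library was above the wild-type and R213A libraries of its own table, control 3 by little. The differences were -0.70 ± 0.27 on wild-type and -0.75 ± 0.28 on R213A matrix (SE, limma adjusted p = 0.757 and 0.690), with -1.09 and -1.08 by the 4-library table and -0.51 and -0.47 by the other. Without control 2 the latter were -0.09 and -0.06. EIF3C, another core subunit, was at 16.0, 5.11, 5.55 and 11.7 FPKM in control 1, wild type 1, R213A 1 and R213A 3, and at 11.5 in control 2 against 4.56 to 6.73 in the other 4. Its wild-type difference of -0.87 ± 0.34 (SE, limma adjusted p = 0.757) had -1.48 from the 4-library table and -0.57 from the other, where it was -0.02 without control 2. EIF3C has a near-identical neighbour, EIF3CL, which was at 5.87, 7.18, 13.3 and 9.15 FPKM in the 4-library table and 5.92 to 11.3 in the other. Reads can be split between this pair, so both values are uncertain. EIF3CL had the smallest p of a member for wild type against R213A, at -0.57 ± 0.26 (SE, limma adjusted p = 0.996), with -0.56 and -0.47 in the tables.

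**Figure D4:**
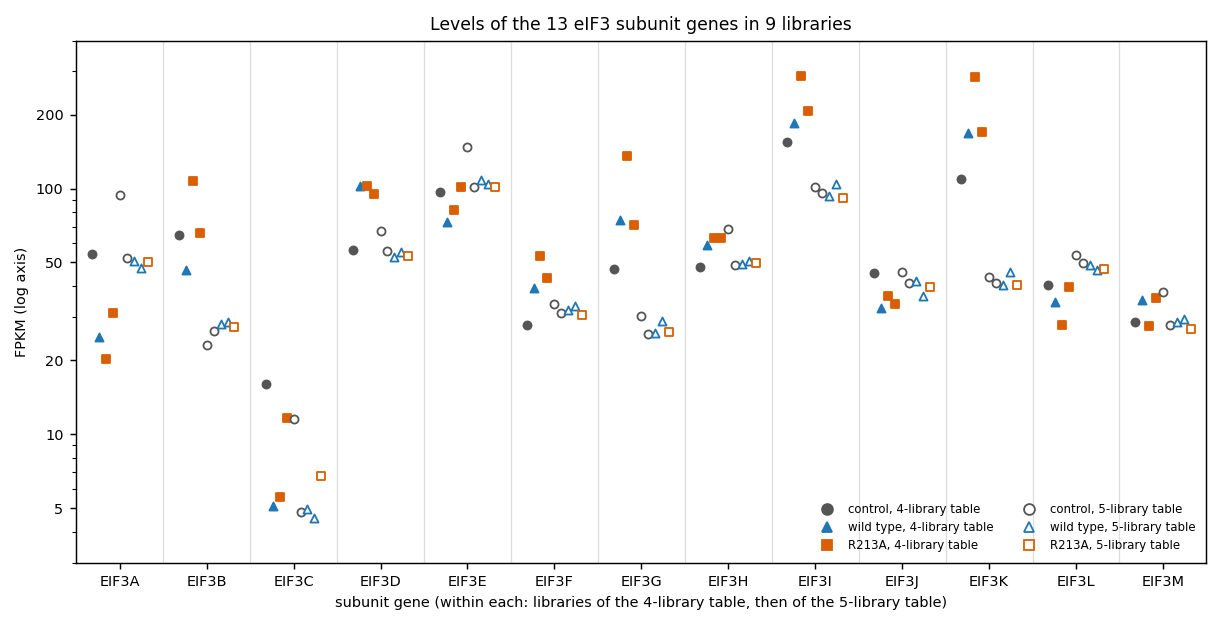
Points give the level in FPKM (log axis) of the 13 eIF3 subunit genes in the 9 libraries, filled for the 4-library and open for the 5-library table, with colour and shape for the group. EIF3K, EIF3I and EIF3G are higher in the 4-library table, up to 284, 286 and 135 FPKM in R213A 1, while EIF3A has its own lowest value in that library, 20.2 FPKM.

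EIF3D, EIF3F, EIF3G, EIF3H, EIF3I, EIF3K and EIF3M ran opposite to EIF3A in both comparisons with control in the 4-library table. EIF3B did so on R213A matrix only. EIF3K, a small peripheral subunit, was at 109 FPKM in control 1, 169 in wild type 1 and 284 and 170.2 in R213A 1 and 3, and at 40.5 to 45.8 in the 5-library table. The ratio of EIF3K to EIF3A was 2.01 in control 1, 6.79 in wild type 1 and 14.04 and 5.49 in R213A 1 and 3, but 0.465 to 0.967 in the 5-library table. EIF3G, an RNA-binding subunit, was at 47.1, 74.2, 135 and 71.3 FPKM in the 4-library table and 25.5 to 30.2 in the other. EIF3B, a core scaffold subunit, was at 64.5, 46.6, 108 and 65.9 FPKM and 23.0 to 28.6. EIF3E and EIF3J, a subunit at the mRNA exit and a loosely bound one, varied less, at 72.8 to 147 and 32.6 to 45.7 FPKM over all 9 libraries. For R213A against control 8 of 13 subunit genes stood higher in the 4-library table (median 0.38) and 1 of 13 in the other (median -0.14). Without control 2 the latter was 5 of 13, with a median of -0.02. Over all genes these shares were 47.8%, 46.6% and 49.7%. The summed level of the 13 genes was 789, 880.4, 1231 and 969 FPKM in control 1, wild type 1, R213A 1 and R213A 3, 759 in control 2 and 592 to 616 in the rest.

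EIF5A, whose hypusine-bearing product relieves stalled ribosomes, and EIF6, which keeps the ribosomal subunits apart, were higher in the 4-library table. EIF5A was at 315 FPKM in control 1, 230.5 in wild type 1 and 571 and 386 in R213A 1 and 3, and at 107 to 143 in the 5-library table. Both R213A libraries lay above wild type 1, and the difference between wild type and R213A was -1.02 there and 0.05 in the 5-library table (over both, -0.47 ± 0.29, SE, limma adjusted p = 0.996). EIF5A2, its relative, went the other way between tables, at 3.26 to 5.64 and 7.54 to 8.82 FPKM. EIF6 was at 104, 169, 265.4 and 169 FPKM in control 1, wild type 1, R213A 1 and R213A 3 and at 48.4 to 56.4 in the 5-library table. Its R213A difference was 0.45 ± 0.29 (SE, limma adjusted p = 0.690), with 1.02 by the 4-library table and -0.10 by the other. The eEF1A methyltransferase gene EEF1AKMT4 was at 5.59, 9.02, 18.5 and 8.11 FPKM and at 2.31 to 2.76.

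The differences of the 4-library table varied with gene length and GC content. Across the 63 members, the R213A minus control difference in the 4-library table had a Spearman rho of -0.47 with exon length and 0.59 with GC content, beside -0.41 and 0.58 across 11188 genes. For wild type minus control the values were -0.44 and 0.33, beside -0.27 and 0.39. By the 5-library table they were -0.06 and 0.27 for R213A, beside -0.04 and -0.04 across all genes, and -0.03 and 0.27 for wild type, beside -0.15 and 0.01. The difference of the 4-library minus the 5-library mean also varied with both. Its rho was -0.35 with length and 0.57 with GC content across the members, beside -0.37 and 0.55 across all genes. These are descriptions across genes, which are not replicates, and the part of length and GC content in the differences was not tested. In bulk libraries fewer cells of a kind and less RNA per cell cannot be told apart.

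Members with a TOP-like start and members without it differed in median in the 4-library table. There the 13 had a median of 0.18 for wild type against control and the 37 tested members without it -0.33. For R213A against control the medians were 0.21 and -0.03. The order was the other way in the 5-library table for wild type (-0.17 and 0.01, or -0.0037 and 0.02 without control 2) and in the fit over both tables for R213A (-0.02 and 0.08). In that fit the wild-type medians were -0.0082 and -0.06. By the 5-library table, 0 of the 13 stood higher on R213A matrix (median -0.19, and -0.01 for the 37), but 4 of 13 did without control 2 (median -0.02). Over all genes 46.6% and 49.7% stood higher there. The median of 77 ribosomal protein genes was 0.98 by the 4-library table and -0.12 by the other for R213A against control, and 0.03 in the latter without control 2. No difference between these lists was tested.

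Other genes of translation, listed from textbook knowledge, did not pass either. Of 54 tested, 27 stood higher and 27 lower on wild-type matrix (median 0.01), and 23 higher and 31 lower on R213A matrix (median -0.13). Over all genes 46.3% and 48.1% stood higher. limma called 0 in each comparison, with 4 and 0 at an unadjusted p under 0.05, beside 4.49% and 3.05% of all genes. The 4 were PABPC4, ABCE1 and DPH1, which were lower on wild-type matrix, and DPH3, which was higher. The 4 tested genes of poly(A) binding stood lower in both comparisons and in both tables, with medians of -0.57 and -0.54 by the 4-library table and -0.16 and -0.12 by the other, the latter -0.05 and -0.04 without control 2. PABPC1, the main cytoplasmic poly(A)-binding protein, was at 654 FPKM in control 1, 423 in wild type 1 and 305 and 568 in R213A 1 and 3. The other table had it at 1163 in control 2 and 924 to 964 in the other 4. ABCE1, which splits ribosomes after termination, was at 23.9, 8.79, 10.7 and 14.5 FPKM in the 4-library table and 22.6 to 29.7 in the other, with a wild-type difference of -0.59 ± 0.25 (SE, limma adjusted p = 0.757). LARP1, the repressor of TOP mRNAs, was at 51.3, 29.1, 25.8 and 35.8 FPKM and 45.2 to 51.8.

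Genes downstream of eIF2 phosphorylation were highest in wild type 1. ATF4, whose mRNA is translated when eIF2 is phosphorylated, was at 137 FPKM in control 1, 339.7 in wild type 1 and 263.8 and 302 in R213A 1 and 3, and at 254 in control 2 and 169.7 to 190.2 in the other 4. PPP1R15A, which encodes GADD34, the stress-induced subunit of the eIF2 phosphatase, was at 30.02, 174, 38.1 and 33.4 FPKM in control 1, wild type 1, R213A 1 and R213A 3, and at 45.6 to 51.2 in the 5-library table. DDIT3, which encodes CHOP, was at 6.08, 138, 11.1 and 25.0 FPKM and, in the 5-library table, at 67.0 in control 2 and 27.0 to 31.8 in the rest. Wild type 1 was thus the highest of the 4 for these genes as it was for EIF1, EIF1B and EIF4EBP1. For wild type against control the limma adjusted p of ATF4, PPP1R15A and DDIT3 was 0.82, 0.757 and 0.757.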

How the data were processed

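The deposited values are FPKM per gene, which the authors computed and deposited as 2 tables of the same genes. RNA was extracted with TRIzol and libraries followed the Illumina TruSeq stranded mRNA guide, per the labels' protocols. The genome build hg38 and the converter bcl2fastq are named per the submitters' processing notes. The aligner, the counting program and its strand setting were not given in the sources used here. The exons of 35 members overlap exons of the opposite strand. Read numbers recovered from FPKM and gene length were whole for 99.995% to 100% of values (tolerance 0.01), and library scaling over recovered reads was 0.850 to 1.09, a step whose source is not given.

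Groups were compared on log2(FPKM + 1) with limma 3.58.1 (trend) in R 4.3.3, over 11193 genes whose mean reached 1 FPKM, with group and table as terms and 5 residual degrees of freedom. Differences on this scale understate those of low genes. The Benjamini-Hochberg adjustment ran over all genes tested, with a threshold of 0.05. The script was tested on simulated data. Plain differences of group means were formed within each table. Text and figures used Python 3.11.15 and pandas 2.3.3.

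The members and lists were chosen with earlier results of these data known. Named members were 28 fixed ones plus, per comparison, the 3 of smallest p with 1 sign in both tables. A further 13, and the genes outside the members, were singled out after their values were seen. Alternatives changed the pseudocount, filter, scaling, table term, replicate block, spread model and libraries. The difference in the 5-library table with and without control 2, and the median over all members above 0, were added after seeing the data.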

Additional observations from a re-analysis of the deposited data

How the results depend on the processing

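Under 18 alternative settings 0 members were called in any comparison, and the smallest adjusted p of a named member was 0.335 (limma or limma-voom). Without the filter 1 of all genes was called for wild type against control and 1 for R213A against control, and 0 members were. The members' median for R213A against control was 0.19 without the table term and -0.075 in the 5-library table alone, also as a plain difference. For wild type against R213A it was -0.0055 with quantile scaling, -0.014 with limma-voom and 0.021, reversed, in the 5-library table. Leaving out each library in turn gave medians from -0.074 to -0.00086 for wild type against control, from 0.027 to 0.14 for R213A against control and from -0.25 to -0.051 for wild type against R213A.

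Of 2367 values of 44 tested named members, 20 reversed a difference larger than its standard error and 210 changed sign at any size. With the 5-library table alone the wild-type difference from control became -0.17 for EIF1, 0.037 for EIF2AK2 and 0.021 for EIF5A2. The R213A difference became -0.023 for EEF1B2, 0.044 for EIF2AK2, -0.10 for EIF6, -0.059 for EIF3K and -0.088 for EIF3G. For wild type against R213A it became 0.053 for EEF1D, 0.049 for EIF5A, 0.045 for EIF3B and -0.0070 for EIF5. The other reversals came without control 1 and, for EEF2K, without wild type 1. Over all left-out libraries the wild-type difference ran from -0.048 to 0.77 for EIF1 and from -0.36 to 0.028 for EIF2AK2. The R213A difference ran from -0.0066 to 0.55 for EEF1B2, -0.0022 to 0.42 for EIF2B2, -0.44 to 0.062 for EIF2AK2, -0.44 to 0.030 for EIF4E and -0.022 to 1.04 for EIF4EBP1. For EEF2K in wild type against R213A it ran from -0.30 to 0.032. The cause was not tested.

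The labels of same-numbered libraries give only the number, and whether such libraries were prepared together is not stated. With group means removed, 7 of 9 pairs had correlations of 0.33 to 0.84, and the pairs of R213A 3 with control 3 and wild type 3 had -0.65 and -0.70. Libraries 1 share a table, as do libraries 2, whereas R213A 3 is in another table than control 3 and wild type 3. With table means removed as well, the 9 pairs had correlations of -0.76 to -0.06. The replicate block beside the table term gave medians of -0.03, 0.13 and -0.07 in the 3 comparisons, 0 members called, and 3, 4 and 0 at an unadjusted p under 0.05, beside 2.55%, 5.65% and 1.12% of all genes. Counting error weighs most on the lowest tested members, which had as few as 29 reads in a library.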

Other observations

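Among translation genes outside the members, in the fit over both tables, mitochondrial translation factors had 4 of 9 genes higher on wild-type and 5 of 9 on R213A matrix (medians -0.05 and 0.02). TUFM, the mitochondrial counterpart of eEF1A, was at 127 FPKM in control 1, 128 in wild type 1 and 270.2 and 167 in R213A 1 and 3, and at 67.1 to 76.97 in the 5-library table. GFM2, which recycles mitochondrial ribosomes, ran opposite to TUFM between the tables, at 12.6, 5.97, 5.25 and 6.72 FPKM in the 4-library and 19.4 to 21.9 in the 5-library table. Of the genes of hypusine and diphthamide, the modifications of eIF5A and eEF2, 4 of 7 tested stood higher on wild-type and 5 of 7 on R213A matrix (medians 0.16 and 0.21). DOHH, the last enzyme of hypusine formation, was at 19.2, 19.8, 37.7 and 18.3 FPKM in control 1, wild type 1, R213A 1 and R213A 3 and at 7.02 to 9.54 in the 5-library table.

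The mTORC1, S6K and MNK genes had medians of 0.03 and -0.11, with 8 and 6 of 13 higher, and the termination and recycling genes -0.12 and -0.18, with 3 and 2 of 8 higher. MLST8, a subunit of mTORC1, was at 35.4, 63.9, 92.1 and 61.5 FPKM in the 4-library table and 19.5 to 23.8 in the other. DDX3X, a helicase that helps scanning, was at 37.5, 13.7, 13.4 and 17.1 FPKM and at 41.9 to 59.0. Helicases and scanning helpers had medians of 0.04 and 0.07 with 3 of 6 higher in both. The genes of the eIF2 phosphatase, the GCN2 partners and the targets had medians of 0.27 and -0.04, with 5 and 2 of 7 higher. In each of these lists limma called 0 genes. Beside the counts of these lists, 46.3% and 48.1% of all genes stood higher on wild-type and R213A matrix.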
